A study of Mustela putorius furo and Mus musculus with 4 samples.

Results

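Genes encoding neutral and cationic amino acid transporters were compared between cultured ferret and mouse astrocytes. They were taken by symbol, as every numbered gene of the SLC7A, SLC38A, SLC36A and SLC43A families plus Slc3a1 and Slc3a2 that was listed for both species. This gave 30 genes of the 13373 gene symbols the species share. The families were chosen with earlier results of these data known. The ferret group (2 libraries, Mustela putorius furo) came from the cerebral cortex of postnatal day 1 pups, and the mouse group (2 libraries, ICR strain) from cortices taken on postnatal days 1 to 3. The labels name no transgene or drug for either group. Both were kept for 14 days as mixed glia with fetal bovine serum, shaken to remove loose cells and replated. On day 3 after replating the medium was exchanged for one without serum, which held 2 mM L-glutamine and N-acetyl cysteine among its supplements, and RNA was taken on day 7. In the mixed cultures the cells of 1 ferret pup filled 4 flasks, whereas those of 4 mouse pups were pooled in a single flask, and it is not stated whether the duplicates were separate cultures. The p-values therefore measure the spread between these libraries, which may be technical.

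Levels are given in FPKM, that is, fragments counted per kilobase of transcript and divided by the mapped total of the library, as the authors deposited them. The study also lists read counts and gene lengths, which were not used here. Depth was therefore not read from counts, and the steps between low values give only the ratio within a species (1.17 for ferret replicate 1 over replicate 2, and 0.829 for mouse replicate 1 over replicate 2). All 12 astrocyte markers were detected in both species. Of these, 8 were called lower in ferret astrocytes by the criteria given further on (Apoe, Slc1a2, Aqp4, Aldh1l1, Ndrg2, Vim, Gja1 and Slc1a3), beside 30.1% of all genes tested. S100b was called higher, beside 13.1% of all genes, and Gfap, Aldoc and Sox9 were not called. After quantile normalization, 5 were lower and 2 higher, and in both rescalings of the FPKM 6 were lower and 2 higher. Slc1a2, a glutamate transporter, had the lowest ferret level at 0.133 and 0.178 FPKM, against 47.1 and 51.8 in the mouse libraries. It passed the filter on low values only through the mouse libraries, so for it a difference was built in. Gfap, the intermediate filament of astrocytes, stood at 1481 and 1522 FPKM in ferret and at 1429 and 1546 in mouse astrocytes. The 12 markers summed to 4774 and 4959 FPKM in ferret and to 10435 and 11226 in mouse astrocytes, led by Aldoc (1660 FPKM) and Vim (4262 FPKM).

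Amino acids cross cell membranes largely through carrier proteins. The SLC7 family holds the cationic amino acid transporters, which carry arginine and lysine without a partner protein, and the light chains, which reach the cell surface only after a disulfide bond joins them to an SLC3 heavy chain. SLC38 proteins move glutamine and other small neutral amino acids together with sodium. SLC36 holds carriers that move such amino acids with protons, often out of lysosomes, and SLC43 holds facilitators of branched-chain amino acids. In the brain, astrocytes take up cystine through xCT to make glutathione and hand glutamine to neurons through system N, from which neurons rebuild glutamate.

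A gene was called when the limma p-value on log2(FPKM + 1), adjusted by Benjamini-Hochberg over all 10204 genes tested, was under 0.05 and the log2 difference exceeded 1 in either direction. Of the 30 transporter genes, 20 reached a mean of 1 FPKM in ferret or mouse astrocytes and were tested. Slc7a11, Slc3a1 and Slc7a1 were called higher in ferret astrocytes, where 13.1% of all genes tested were called higher. Slc38a3, Slc7a2, Slc43a3, Slc7a8, Slc7a7, Slc3a2, Slc38a6 and Slc7a4 were called lower, against 30.1% of all genes. The 3 higher and 8 lower genes are 15% and 40% of the 20 tested, and the 11 together 55%, beside 43.2% of all genes called in either direction. Of these 11 genes, 6 had a mean under 1 FPKM in one species and entered the test only through the other (Slc3a1, Slc7a2, Slc7a4, Slc7a7, Slc7a8 and Slc43a3), so for them a difference was built into the filter. Their log2 differences also depend on the pseudocount, and with 0.1 in place of 1 they were 4.51 for Slc3a1, -6.54 for Slc7a2, -2.08 for Slc7a4, -2.64 for Slc7a7, -3.58 for Slc7a8 and -4.75 for Slc43a3. Of the 14 transporter genes with a mean of at least 1 FPKM in both species, 2 were called higher and 3 lower, beside 10.5% and 25.8% of all such genes. Ferret and mouse libraries did not overlap for any of the 11 called genes, as for 94.1% of all genes tested. The remaining 9 genes lay within a log2 difference of 1. The median log2 difference of the 20 genes was -0.58, beside -0.35 for all genes tested.

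**Figure D1:**
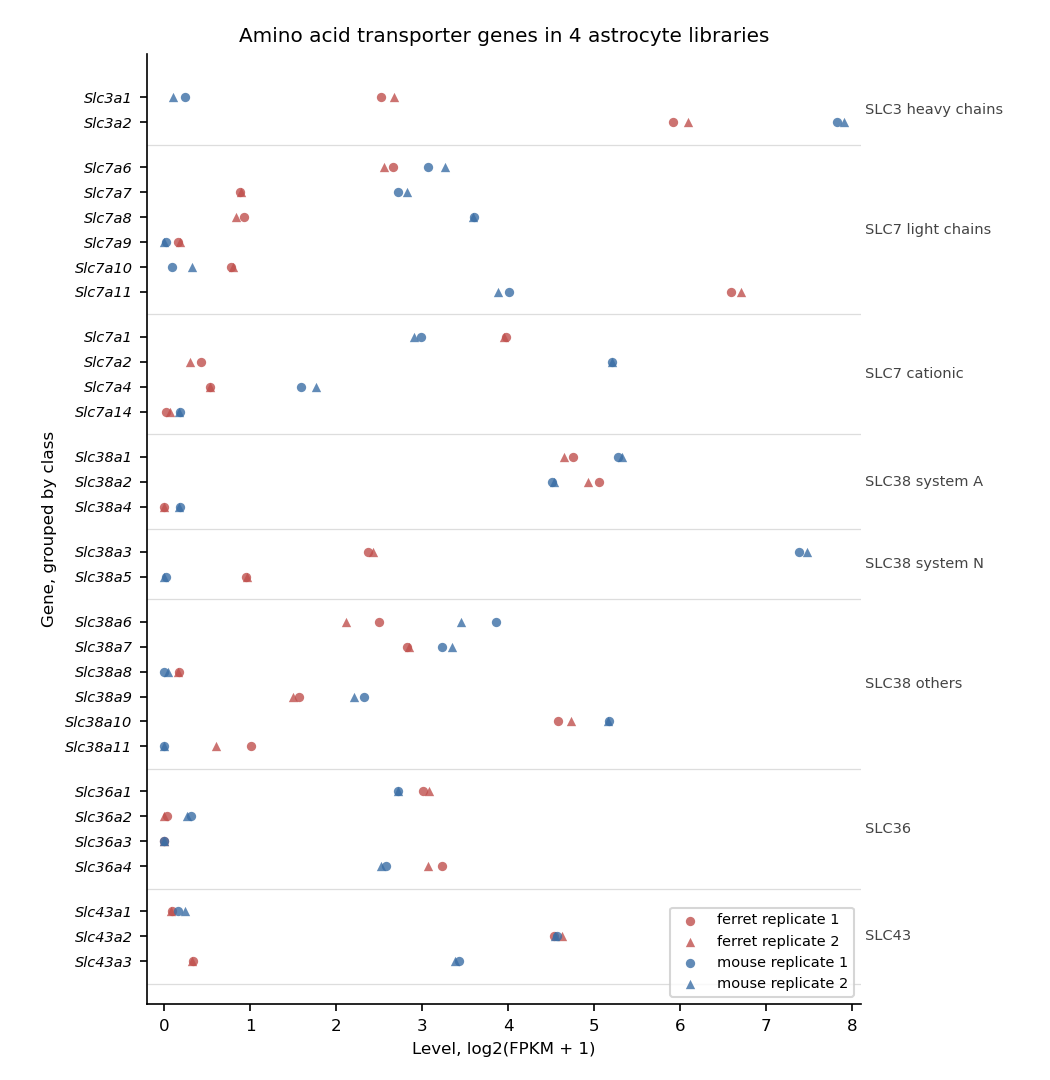
Level of each of the 30 transporter genes, as log2(FPKM + 1) on the x axis, with 1 point per library (red for ferret, blue for mouse; circles for replicate 1, triangles for replicate 2) and genes grouped by class on the y axis. Slc7a11 is the highest ferret gene, Slc3a2 and Slc38a3 are the highest mouse genes, and 10 genes lie at or under 1.01 FPKM in all 4 libraries.

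Slc7a11 encodes xCT, the light chain that exchanges extracellular cystine for intracellular glutamate. Its level was 95.3 and 104 FPKM in ferret libraries versus 15.2 and 13.7 in mouse libraries. Both ferret libraries were far above both mouse libraries, with means 6.90-fold apart. The log2 difference was 2.70 (standard error 0.071, limma adjusted p = 3.99e-10). It was the most abundant transporter gene of the 30 in ferret astrocytes and ranked at position 8 in mouse astrocytes. The mouse gene maps to GRCm38 chromosome 3 (49892526 to 50443614, minus strand), with 13 exonic regions of 13922 bases in all. Counted over whole gene spans, introns included, the antisense gene Gm37854 overlaps it over 8812 bases. On the same strand, Gm37498 and the pseudogene Gm37692 overlap its span over 4002 and 232 bases. Overlap of exons was not computed for this or any other gene. The length of the ferret gene model behind the FPKM was not used here, so for this and all other genes the part of gene models of unequal length in the difference was not tested.

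Slc3a2 encodes the CD98 heavy chain, the partner of xCT and of most other light chains. It had 59.5 and 67.3 FPKM in ferret libraries versus 224 and 239 in mouse libraries. The heavy chain thus ran opposite to xCT, being lower in both ferret libraries (log2 difference -1.86, standard error 0.072, limma adjusted p = 4.98e-09). Dividing one level by the other within a library removes the scaling between species, but not the lengths of the gene models. Their part in this and all other ratios was not tested. The ratio of Slc7a11 to Slc3a2, both in FPKM, was 1.60 and 1.54 in ferret libraries versus 0.068 and 0.057 in mouse libraries. Ferret libraries held more xCT than heavy chain RNA per length, and mouse libraries far less. Mouse Slc3a2 maps to chromosome 19 (8706882 to 8723369, minus strand).

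Slc3a1 encodes rBAT, the second heavy chain, known as the partner of Slc7a9 in the reabsorption of cystine and dibasic amino acids in kidney. Its level was 4.73 and 5.36 FPKM in ferret and 0.187 and 0.078 in mouse astrocytes. The groups did not overlap (log2 difference 2.42, standard error 0.089, limma adjusted p = 3.53e-09). Slc7a9 itself stood at 0.114 and 0.133 FPKM in ferret astrocytes and at 0.018 and 0 in mouse astrocytes, under the limit for testing. In the mouse annotation 767 bases of the Slc3a1 gene span, introns included, overlap Prepl on the opposite strand. Overlap of their exons was not computed, and it is not stated whether strand was used when the genes were quantified.

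The other light chains among the 30 genes had lower levels in ferret astrocytes or were under 1 FPKM in both species. Slc7a8, which encodes LAT2, an exchanger of large and small neutral amino acids, had 0.903 and 0.781 FPKM in ferret and 11.2 and 11.1 in mouse astrocytes. Its ferret libraries lay 13.2-fold under the mouse libraries by the means (log2 difference -2.72, standard error 0.076, limma adjusted p = 6.01e-10). Slc7a7 encodes y+LAT1, which exports dibasic amino acids and is known from lysinuric protein intolerance. It stood at 0.848 and 0.851 FPKM in ferret and at 5.55 and 6.07 in mouse astrocytes (log2 difference -1.88, standard error 0.079, limma adjusted p = 8.35e-09). Slc7a6, encoding the related y+LAT2, had 5.30 and 4.89 FPKM in ferret and 7.39 and 8.59 in mouse astrocytes, a log2 difference of -0.56 that did not reach a call. Slc7a10, which encodes Asc-1, a carrier of D-serine and glycine, was at 0.717 and 0.740 FPKM in ferret and at 0.065 and 0.246 in mouse astrocytes, and was not tested.

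The arginine and lysine transporters changed places between the species. Slc7a1 encodes CAT1, the widely expressed cationic amino acid transporter, and had 14.7 and 14.5 FPKM in ferret and 6.89 and 6.46 in mouse astrocytes. Both ferret libraries were higher, with a log2 difference of 1.02 (standard error 0.069, limma adjusted p = 2.78e-07) that lay at the edge of the limit of 1. Without mouse replicate 2 it was 0.98 and the call was lost. Slc7a2, which encodes CAT2, an arginine transporter linked to nitric oxide and arginase activity, had 0.349 and 0.234 FPKM in ferret and 35.9 and 36.0 in mouse astrocytes. This was the widest gap between means of the 20 genes tested, 123-fold (log2 difference -4.84, standard error 0.077, limma adjusted p = 2.71e-11), at a ferret level near the bottom of the range. Slc7a1 over Slc7a2 came to 42.2 and 61.7 in ferret libraries versus 0.192 and 0.180 in mouse libraries. CAT1 was therefore the more abundant of the pair in ferret and CAT2 in mouse astrocytes. Mouse Slc7a2 maps to chromosome 8 (40862396 to 40922308, plus strand), and Slc7a1 to chromosome 5 (148327410 to 148399904, minus strand).

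Slc7a4, a relative of these transporters, had 0.444 FPKM in both ferret libraries versus 2.01 and 2.41 in mouse libraries (log2 difference -1.15, standard error 0.086, limma adjusted p = 6.19e-07). Its call was lost when each library was rescaled to the average of the 4 sums (-0.96) and after quantile normalization (-0.80). By whole gene spans, introns included, the mouse gene shares 5783 bases with P2rx6 on the opposite strand. Counted in the same way, Slc7a7 and Slc7a10 share 232 and 1088 bases with Oxa1l and Lrp3 on the opposite strand. Slc7a14 stayed under 0.14 FPKM in all 4 libraries.

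**Figure D2:**
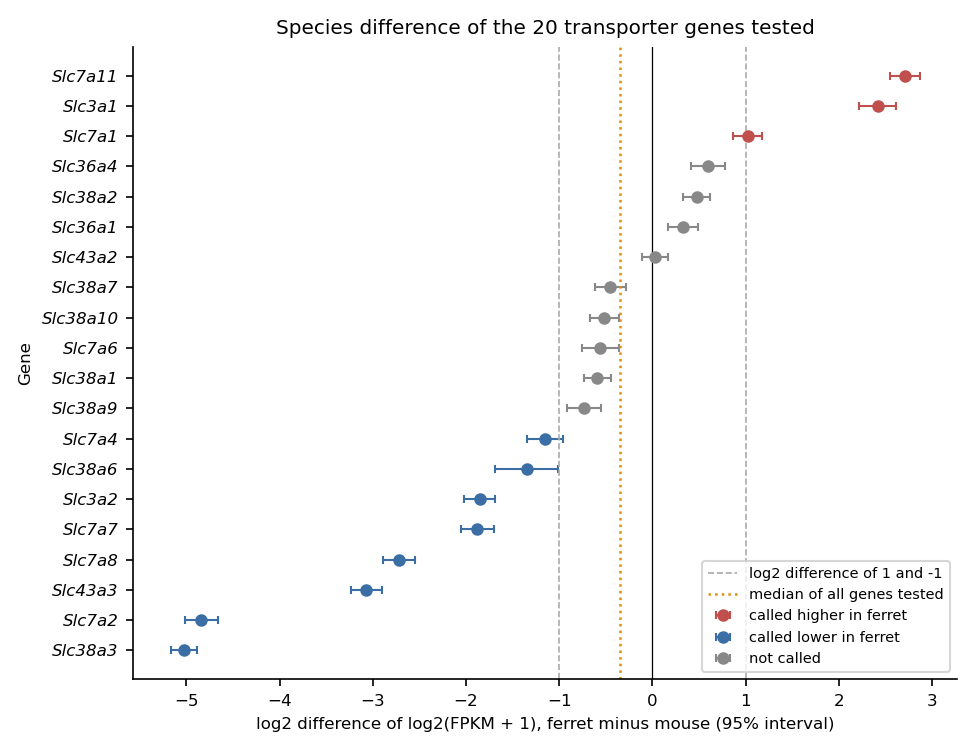
Log2 difference of log2(FPKM + 1), ferret minus mouse, on the x axis for the 20 transporter genes tested (y axis), with 95% intervals from limma, dashed lines at 1 and -1 and a dotted line at the median of all genes tested (-0.35). Slc7a11, Slc3a1 and Slc7a1 lie right of the upper line, 8 genes lie left of the lower line from Slc7a4 at -1.15 to Slc38a3 at -5.03, and 9 genes lie between.

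The system N transporter of astrocytes had the largest log2 difference of the 20 genes with a pseudocount of 1, although Slc7a2 exceeded it with a pseudocount of 0.1 (-6.54 against -5.29) and with a sum of 1000000 (-5.73 against -4.86). Slc38a3, which encodes SNAT3, the carrier through which astrocytes exchange glutamine, had 4.15 and 4.40 FPKM in ferret and 166 and 176 in mouse astrocytes. Its ferret level was detectable in both libraries and 40.0-fold under the mouse level by the means (log2 difference -5.03, standard error 0.063, limma adjusted p = 8.15e-12). It ranked at position 2 of the 30 genes in mouse and at position 13 in ferret astrocytes. The mouse gene maps to chromosome 9 (107650634 to 107669530, minus strand). Slc38a5, the other system N gene, encodes SNAT5 and was under the limit for testing, at 0.930 and 0.952 FPKM in ferret and 0.017 and 0 in mouse astrocytes. Low as it was, its ferret libraries were above its mouse libraries, the reverse of Slc38a3.

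System A, which carries alanine, serine and glutamine with sodium, differed far less. Slc38a1, encoding SNAT1, had 26.0 and 24.0 FPKM in ferret and 37.6 and 38.9 in mouse astrocytes (log2 difference -0.60, standard error 0.064, limma adjusted p = 1.07e-05). Slc38a2, encoding SNAT2, the form that cells induce when amino acids run short, had 32.2 and 29.5 FPKM in ferret and 21.8 and 22.0 in mouse astrocytes (log2 difference 0.47, standard error 0.065, limma adjusted p = 6.90e-05). Neither reached the log2 difference of 1, but they differed in opposite directions. Slc38a2 over Slc38a1 was 1.24 and 1.23 in ferret libraries versus 0.580 and 0.567 in mouse libraries. By FPKM the more abundant of the pair was thus not the same one, and the part of gene model lengths in this was not tested. The genes have no other protein-coding gene between them on mouse chromosome 15, Slc38a1 from 96571418 to 96642913 and Slc38a2 from 96687392 to 96699730, both on the minus strand. Slc38a4, the next protein-coding gene along, is listed at 0 in both ferret libraries and had 0.133 and 0.131 FPKM in the mouse libraries.

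Summed over the 3 system A genes the level was 58.3 and 53.5 FPKM in ferret and 59.6 and 61.1 in mouse astrocytes. The 2 system N genes summed to 5.08 and 5.35 FPKM in ferret and to 166 and 176 in mouse astrocytes. Within a library, Slc38a3 over Slc38a2 was 0.129 and 0.149 in ferret and 7.61 and 7.98 in mouse astrocytes. System A RNA exceeded system N RNA in both ferret libraries, and the order was turned around in both mouse libraries.

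Among the other SLC38 genes, Slc38a10 was the most abundant, with 22.9 and 25.4 FPKM in ferret and 35.0 and 34.8 in mouse astrocytes (log2 difference -0.51). Slc38a7, which encodes a lysosomal glutamine exporter, had 6.09 and 6.19 FPKM in ferret and 8.41 and 9.16 in mouse astrocytes (log2 difference -0.45). Slc38a9, the lysosomal arginine sensor of mTORC1, stood at 1.97 and 1.81 FPKM in ferret and at 4.0 and 3.61 in mouse astrocytes (log2 difference -0.73). None of the 3 was called. Slc38a6 was called lower in ferret astrocytes, at 4.65 and 3.32 FPKM against 13.5 and 9.90 (log2 difference -1.35, standard error 0.150, limma adjusted p = 1.33e-05). Its standard error was the largest of the 20 genes tested, and after quantile normalization it was at -0.93 and no longer called. Slc38a11 had 1.01 and 0.518 FPKM in ferret astrocytes and is listed at 0 in both mouse libraries, and Slc38a8 stayed under 0.13 FPKM. Slc38a11 passed the filter only when ferret replicate 2 was left out, and was then called higher, whereas without the filter its log2 difference was 0.81 (limma adjusted p = 0.0197) and not called.

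The SLC36 genes that were tested were close between species. Slc36a4, encoding PAT4, had 8.35 and 7.39 FPKM in ferret and 4.97 and 4.74 in mouse astrocytes (log2 difference 0.60, standard error 0.080, limma adjusted p = 5.58e-05). Slc36a1, encoding PAT1, had 7.06 and 7.45 FPKM in ferret and 5.60 and 5.57 in mouse astrocytes (log2 difference 0.33, standard error 0.072, limma adjusted p = 0.00171). Both were somewhat higher in the ferret libraries without a call, although Slc36a4 passed the limit at 1.04 when each library was brought to a sum of 1000000 and at 1.01 after quantile normalization. Slc36a2 stayed under 0.25 FPKM, and Slc36a3 is listed at 0 in all 4 libraries. The 3 genes Slc36a3, Slc36a2 and Slc36a1 follow each other on mouse chromosome 11 with no other protein-coding gene between.

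In the SLC43 family one gene was level and another far apart. Slc43a2, which encodes LAT4, a facilitator of branched-chain amino acids, had 22.1 and 23.6 FPKM in ferret and 22.6 and 22.3 in mouse astrocytes. It was the only one of the 20 genes tested whose libraries overlapped between species, while 94.1% of all genes tested did not overlap. Its log2 difference was 0.02 (95% interval -0.12 to 0.17, limma adjusted p = 0.718). This holds for FPKM as deposited, and after rescaling to the average of the 4 sums it was higher in ferret astrocytes by 0.40 (limma adjusted p = 2.36e-04). Slc43a3, known as a transporter of purine nucleobases in spite of its family, had 0.263 and 0.255 FPKM in ferret and 9.72 and 9.40 in mouse astrocytes (log2 difference -3.07, standard error 0.075, limma adjusted p = 2.52e-10). Slc43a1, encoding LAT3, stayed under 0.19 FPKM in all libraries, though only 1 protein-coding gene separates it from Slc43a3 on mouse chromosome 2.

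The make-up of the 30 genes in each library does not depend on a scaling factor between species. Slc7a11 was 30.4% ± 0.934 (SD, n = 2) of their summed FPKM in ferret against 2.22% ± 0.215 (SD, n = 2) in mouse astrocytes. Slc38a3 was 1.31% ± 0.016 (SD, n = 2) in ferret against 26.3% ± 0.449 (SD, n = 2) in mouse astrocytes. Slc3a2 took 19.4% ± 1.16 (SD, n = 2) in ferret against 35.7% ± 0.739 (SD, n = 2) in mouse astrocytes. The xCT light chain thus made up the largest part of the ferret sum, and the CD98 heavy chain the largest part of the mouse sum, followed by SNAT3. By class, the 6 light chains among the 30 genes held 32.7% in ferret and 6.08% in mouse astrocytes. These shares leave out the light chain SLC7A5, which had 43.8 and 46.7 FPKM in ferret and whose mouse level was not analysed here. They are therefore not shares of all light chains in either species. The 3 system A genes held 17.1% and 9.29%. The cationic transporters came to 4.69% and 6.92%, and the SLC36 genes to 4.63% and 1.64%. The 30 genes summed to 321 and 334 FPKM in ferret and to 639 and 661 in mouse astrocytes, or 0.141% and 0.214% of the FPKM of all shared symbols on average. With 2 libraries per species, the smallest two-sided p of an exact permutation test is 0.333, so no test is given for the shares and ratios.

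**Figure D3:**
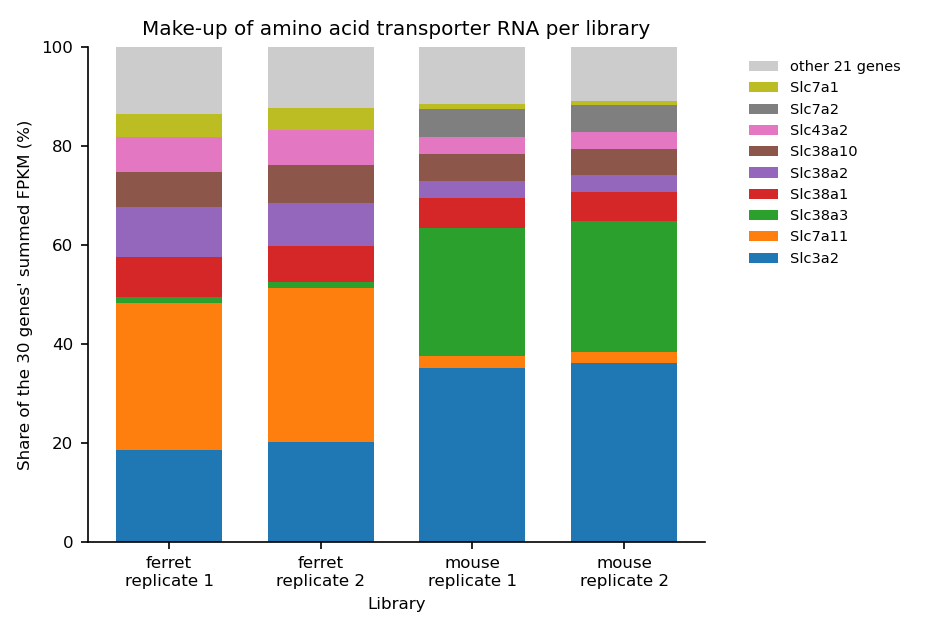
Share of the summed FPKM of the 30 transporter genes (y axis, percent) in each of the 4 libraries (x axis), stacked by gene for 9 genes, with the other 21 genes in grey. Slc7a11 takes 30.4% of the bar on average in ferret and 2.22% in mouse astrocytes, and Slc38a3 1.31% and 26.3%.

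The scaling between species shifts all differences. FPKM summed over the shared symbols to 227391 and 236543 in ferret libraries versus 300465 and 308121 in mouse libraries. The median of all genes moved from -0.35 to -0.01 after either rescaling and to 0.05 after quantile normalization. Genes called higher were 30.3% of all calls with FPKM as deposited. Their part was 46.4% when each library was brought to a sum of 1000000, 46.9% when brought to the average of the 4 sums and 50.0% after quantile normalization. Among the transporter genes the split of 3 higher and 8 lower became 4 and 8, 3 and 7, and 4 and 6 in the same order. Relative to the median of all genes, Slc7a11 was higher by 3.05, Slc3a1 by 2.77 and Slc7a1 by 1.37, and Slc38a3 was lower at -4.68, Slc7a2 at -4.49 and Slc3a2 at -1.51. None of the 20 genes changed direction between the 4 scalings. Under a sum of 1000000 the added pseudocount weighs less, so genes near 0 in one species, such as Slc3a1 and Slc7a2, moved farthest from 0 there. Of the 9 genes not called, 3 were higher and 5 lower at an adjusted p under 0.05 by limma as deposited, where 88.6% of all genes passed that limit alone. In both rescalings Slc38a7 no longer did and Slc43a2 passed instead, and after quantile normalization Slc38a7, Slc38a10 and Slc7a6 no longer did.

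**Figure D4:**
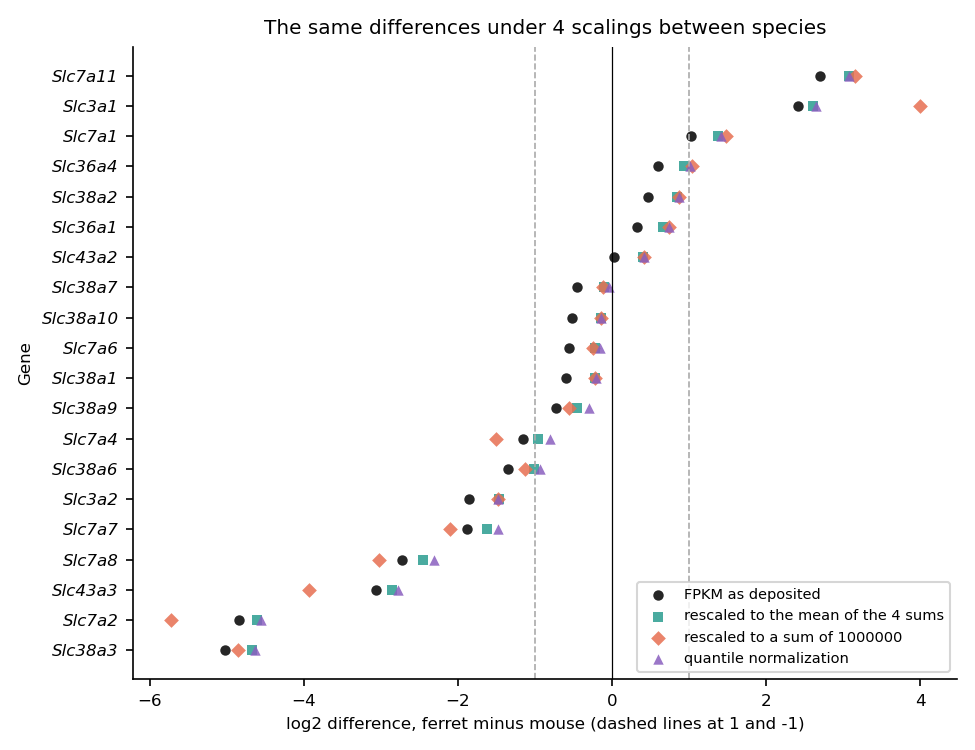
Log2 difference, ferret minus mouse, on the x axis for the 20 transporter genes tested (y axis) with FPKM as deposited and under 3 other scalings between species (marker shape and colour), with dashed lines at 1 and -1. Every gene keeps its side of 0, the 9 genes between the lines move to the right under the other scalings, and Slc36a4, Slc7a4 and Slc38a6 cross a line in at least one of them.

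Of 20 listed amino acid transporters outside these families, 16 were shared and 11 tested, of which 4 were called higher and 2 lower in ferret astrocytes, beside 13.1% and 30.1% of all genes. The most abundant in mouse astrocytes was Slc6a6, the taurine transporter, with 25.9 and 29.4 FPKM in ferret and 37.1 and 38.6 in mouse astrocytes (log2 difference -0.44, not called). Mfsd12, which is needed for the import of cysteine into lysosomes and melanosomes, had 57.3 and 63.3 FPKM in ferret and 10.9 and 10.6 in mouse astrocytes (log2 difference 2.38). Ctns, which encodes cystinosin, the exporter of cystine from lysosomes, had 30.4 and 32.6 FPKM in ferret and 8.81 and 9.63 in mouse astrocytes (log2 difference 1.67). Slc1a5, encoding the glutamine carrier ASCT2, stood at 8.52 and 8.20 FPKM in ferret and 3.35 and 3.20 in mouse astrocytes, and was called higher as well (log2 difference 1.13). The fourth gene called higher was Slc6a17 (log2 difference 1.12). Slc1a4, encoding ASCT1, a carrier of serine, went the other way, with 7.98 and 8.11 FPKM in ferret and 26.5 and 26.8 in mouse astrocytes (log2 difference -1.61). Slc16a10, an aromatic amino acid transporter, was the other gene called lower (log2 difference -1.26), and with a ferret mean under 1 FPKM it was tested only through its mouse level. The median log2 difference of the 11 genes was 0.23 as deposited, and 0.63 with a sum of 1000000, 0.59 with the average of the 4 sums and 0.64 after quantile normalization, where 5 genes were higher in each and 2, 2 and 1 lower.

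Of 10 tested genes of cystine and glutathione use, 1 was called higher and 3 were called lower, shares close to the 13.1% and 30.1% of all genes. Gsr, which encodes glutathione reductase, had 134 and 144 FPKM in ferret and 21.3 and 23.8 in mouse astrocytes (log2 difference 2.57, limma adjusted p = 5.01e-10). Gclc, the catalytic subunit of the first enzyme of glutathione synthesis, had 111 and 126 FPKM in ferret and 60.9 and 61.8 in mouse astrocytes, a log2 difference of 0.93 that did not reach a call. Txnrd1, encoding thioredoxin reductase, which can also reduce cystine, had 137 and 145 FPKM in ferret and 96.5 and 96.6 in mouse astrocytes (log2 difference 0.54). These 3 genes had the highest ferret levels of the list, and in each the ferret libraries were above the mouse libraries. Gclm, the partner subunit of Gclc, went the other way, with 46.5 and 55.0 FPKM in ferret and 76.5 and 75.6 in mouse astrocytes (log2 difference -0.58, not called). The genes called lower were Anpep, encoding an aminopeptidase of the cell surface (log2 difference -2.15, tested only through its mouse level), Abcc1, encoding an exporter of glutathione (log2 difference -1.89), and Ggt7, of the gamma-glutamyltransferase family (log2 difference -1.87). In each of the other scalings, and without ferret replicate 1, 2 genes were called higher and 3 lower.

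The amino acid response, in which the kinase encoded by Eif2ak4 senses a shortage and ATF4 turns on target genes, had 8 of 18 tested genes called lower and 2 called higher in ferret astrocytes, where 30.1% of all genes tested were called lower and 13.1% higher. One of the lower genes, Chac1, was tested only through its mouse level. The median log2 difference was -0.76, beside -0.35 for all genes, and with a sum of 1000000, the average of the 4 sums and quantile normalization it was -0.46, -0.42 and -0.37. Atf5, a transcription factor of this response, was lower at 3.28 and 4.03 FPKM against 63.7 and 66.9 in mouse astrocytes (log2 difference -3.84). Ddit3, encoding CHOP, had 4.23 and 4.82 FPKM in ferret and 32.6 and 30.6 in mouse astrocytes (log2 difference -2.56). Psat1, an enzyme of serine synthesis, had 27.8 and 25.6 FPKM in ferret and 108 and 112 in mouse astrocytes (log2 difference -2.00). Asns, encoding asparagine synthetase, was closer, at 15.0 and 14.8 FPKM against 20.9 and 21.9 (log2 difference -0.49, not called). The 2 genes called higher were Vldlr, which encodes a lipoprotein receptor and had 85.3 and 92.7 FPKM against 4.53 and 3.96 (log2 difference 4.10), and Gpt2, which encodes a mitochondrial alanine aminotransferase (log2 difference 1.45). Without ferret replicate 1, 6 genes were called lower. In both rescalings 6 were lower and 3 higher, and after quantile normalization 5 were lower and 3 higher.

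Of 24 tested genes of amino acid sensing at the lysosome, 19 were not called, 1 was called higher and 4 were called lower, beside 13.1% and 30.1% of all genes called higher and lower. The median log2 difference was -0.06 as deposited, and 0.32, 0.29 and 0.33 in the other scalings. Rraga, encoding the RagA GTPase, had 99.6 and 102 FPKM in ferret and 57.8 and 60.5 in mouse astrocytes (log2 difference 0.76, not called). Lamtor4, a subunit of the Ragulator complex that holds the Rag GTPases on the lysosome, was called higher (log2 difference 1.27). Lamtor5 of the same complex was called lower (log2 difference -1.97), as were Sec13 (-1.96), Nprl3 (-1.25) and Sesn1 (-1.16). In each of the other scalings 4 genes were called higher and 2 lower. These scalings also moved the median of all genes, from -0.35 to -0.01, -0.01 and 0.05. The turn in the counts therefore tells nothing about the list apart from all genes. Under each of the 4 scalings the median of the list lay above that of all genes.

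**Figure D5:**
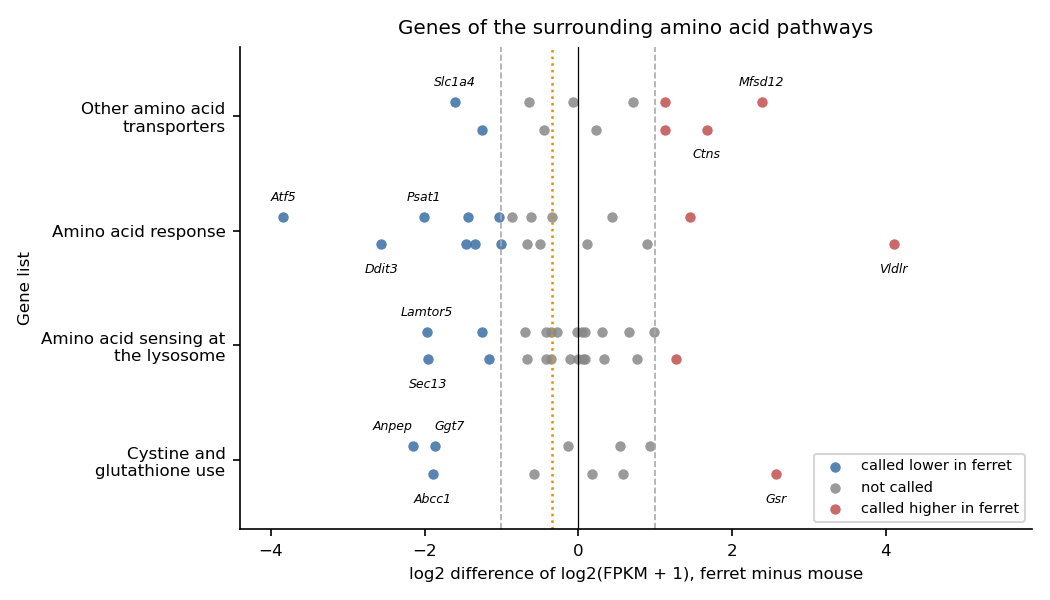
Log2 difference of log2(FPKM + 1), ferret minus mouse, on the x axis for the tested genes of 4 lists from the surrounding amino acid pathways (y axis), in red for genes called higher in ferret, blue for lower and grey for not called, with dashed lines at 1 and -1 and the median of all genes dotted. Vldlr at 4.10, Gsr at 2.57 and Mfsd12 at 2.38 lie farthest right, and Atf5 at -3.84 lies farthest left.

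Markers of other cell types moved with the species too. Fewer cells of a type and less RNA per cell cannot be told apart from these RNA levels. All 14 microglial markers tested were called lower in ferret astrocytes, beside 30.1% of all genes tested. Their summed level was 8.97 and 7.99 FPKM in ferret and 926 and 906 in mouse libraries. The most abundant were Cd68 in ferret (2.64 FPKM) and Tyrobp in mouse astrocytes (146 FPKM), and Cx3cr1 is listed at 0 in both ferret libraries. C1qb, C1qc and Ctss, each over 100 FPKM in mouse, averaged 0.573, 1.00 and 0.682 FPKM in ferret astrocytes. Meningeal fibroblast markers were called lower in 9 of 10 genes, beside the same 30.1% of all genes. Their sums were 126 and 112 FPKM in ferret and 1786 and 1764 in mouse libraries. They were led by Col1a2 (79.6 FPKM) and Serpinf1 (641 FPKM), and Mgp is listed at 0 in ferret. Serpinf1, Col3a1, Mgp and Ogn had the largest log2 differences of the list (-9.18, -7.27, -6.24 and -6.20), whereas Col1a1 differed by -2.36. Of these called markers, 11 of the 14 microglial and 4 of the 9 fibroblast genes had a ferret mean under 1 FPKM and passed the filter only through the mouse libraries, so for them a difference was built in. Both lists were lower in the same libraries as Slc38a3, Slc7a2, Slc7a7, Slc7a8, Slc43a3, Slc3a2, Slc38a6 and Slc7a4, and their part in those differences was not tested.

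The endothelium of brain vessels is rich in several of these transporters. Of 10 endothelial markers only 4 were tested and 3 were called lower (Cdh5, Esam and Tek), beside 30.1% of all genes tested. The list summed to 1.19 and 2.06 FPKM in ferret and 30.3 and 30.4 in mouse libraries. All 3 called genes had a ferret mean under 1 FPKM and passed the filter only through the mouse libraries. Cdh5 made up most of the mouse sum at 22.2 FPKM and Egfl7 led in ferret at 1.25 FPKM. Of the other markers, Cldn5 (listed at 0 in both mouse libraries) and Pecam1 (0.041 and 0.031 FPKM in mouse, listed at 0 in both ferret libraries) were at or near 0, and so were Tie1 and Erg in all 4 libraries. Cdh5 and Tek are listed at 0 in both ferret libraries. Pericyte markers were split, with Kcnj8 called higher (log2 difference 3.62), Pdgfrb called lower (-2.16) and sums of 20.2 and 19.6 FPKM in ferret and 33.0 and 30.8 in mouse libraries. Kcnj8 led the list in ferret (11.5 FPKM) and Pdgfrb in mouse astrocytes (23.6 FPKM), and Rgs5 is listed at 0 in ferret.

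Some oligodendrocyte lineage and neuronal markers were higher in ferret astrocytes, as Slc7a11, Slc3a1 and Slc7a1 were. Of 8 oligodendrocyte lineage markers tested, 3 were called higher in ferret astrocytes, Sox10 and Mbp among them, and 0 lower. Of all genes tested, 13.1% were called higher and 30.1% lower. The list summed to 170 and 188 FPKM in ferret and 69.1 in both mouse libraries. The count called higher in the list was 6 with a sum of 1000000 and 5 in the other scalings and with a pseudocount of 0.1, with 0 lower in each. Over all genes tested, calls higher rose from 1336 to 2197 with a sum of 1000000 and to 1579 with a pseudocount of 0.1. They were 1954 with the average of the 4 sums and 2080 after quantile normalization. Olig2, another marker of the list, had 4.92 and 5.18 FPKM in ferret and 9.62 and 9.80 in mouse astrocytes (log2 difference -0.82, not called), and Cspg4 stood at a log2 difference of -0.47. Pdgfra and Cspg4 are in this list and also in the fibroblast and the pericyte list. Cnp was the most abundant in both species, at 86.0 and 46.6 FPKM. Of 4 neuronal markers tested, 3 were called higher (Nefl, Syt1 and Gad1) and 0 lower, beside 13.1% and 30.1% of all genes. The list summed to 36.4 and 36.6 FPKM in ferret and 22.0 and 23.9 in mouse libraries, led by Gap43 at 23.6 and 20.6 FPKM. Sox10, Nefl and Gad1 had a mouse mean under 1 FPKM and passed the filter only through the ferret libraries, as did Kcnj8 among the pericyte markers. Rbfox3, another neuronal marker of the list, was under 0.09 FPKM in all 4 libraries. The part of these cells in the higher genes was not tested.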

How the data were processed

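RNA of cultured astrocytes (2 ferret and 2 mouse libraries) was sequenced after polyA selection with a stranded kit. Per the labels and the study's methods, the authors aligned reads with STAR 2.7.0f to the Ensembl genomes MusPutFur1.0 and GRCm38, and deposited FPKM per gene from Cufflinks 2.2.1. The FPKM are normalized within a library only. Symbols were joined in upper case. Where a symbol had several values (7 shared symbols in ferret, 13 in mouse, 0 of the transporter genes) the highest mean was kept.

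The species were compared with limma 3.58.1 (R 4.3.3, empirical Bayes with an expression trend) on log2(FPKM + 1), a scale that understates the change of low genes, over genes averaging 1 FPKM or more in either species. The fit was checked on simulated data. No covariate was used. No count test was run, since the read counts and gene lengths the study lists elsewhere were not used here. The transporter genes, gene lists and tests were chosen with earlier results of these data known. Every transporter gene is accounted for. Of each other list, the 4 called genes with the largest log2 difference and genes averaging 100 FPKM or more were to be named, of which 1 is not reported here. Slc1a5, Slc6a6, Slc6a17, Gpt2, Chac1, Eif2ak4, Gclm, Sesn1, Asns, Sox9 and the marker genes Cd68, Cx3cr1, Pecam1, Cldn5, Tie1, Erg, Egfl7, Rgs5, Olig2, Pdgfra, Cspg4, Cnp, Gap43 and Rbfox3 were named beyond that after their values were seen.

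Listed genes without a symbol in both species, such as Slc66a1 and Lars1, were not analysed here. Mouse coordinates are those of GENCODE M21 on GRCm38. A ferret genome, and stained or imaged cells were not used here. Results were recomputed with a pseudocount of 0.1, without the filter or with a minimum of 5 FPKM, with 3 other scalings between libraries, with summed or first values of a symbol, by limma without the trend, with the replicate number as a block, and each library left out in turn. Python 3.11.15 with pandas 2.3.3 was used for joins, and matplotlib 3.10.9 for figures.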

Additional observations from a re-analysis of the deposited data

How the results depend on the processing

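Of the 11 calls, all 11 were kept with a pseudocount of 0.1, no filter, each library brought to a sum of 1000000, summed or first values of a symbol and limma without the trend. Scaling to the average of the 4 sums and a minimum of 5 FPKM each kept 10, without Slc7a4, which the latter does not test, and quantile normalization kept 9, without Slc7a4 and Slc38a6. The median log2 difference of the transporter genes moved from -0.58 to -0.16 with no filter, which adds 10 genes near 0, to -0.23 with each library brought to a sum of 1000000, to -0.22 after scaling to the average of the 4 sums and to -0.18 after quantile normalization. It lay between -0.64 and -0.54 when each library was left out in turn. With 1 library left out, whose partner is then assumed to vary like the other species, 2 to 4 genes were called higher and 8 lower, the call of Slc7a1 being lost without mouse replicate 2. Slc43a2 lay between -0.019 (without ferret replicate 2) and 0.068 (without ferret replicate 1) when a library was left out, both within its interval. Over all genes tested, 1336 were called higher, and 2197 with each library brought to a sum of 1000000, 1954 after scaling to the average of the 4 sums and 2080 after quantile normalization, while 3069 were called lower, and 2536, 2215 and 2082 in the same order.

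With the replicate number as a block, 3 transporter genes were higher and 8 lower, as without it, and 1342 and 3072 of all genes. The deviations of same-numbered libraries correlated at 0.01 over 10204 genes, so no shared effect of the replicate number was seen. Whether same-numbered libraries were handled together is not stated, and this correlation cannot decide it. Genes under 1 FPKM are limited by depth, which was not read from counts here, and their zeros can be failed estimates.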

Other observations

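Members of these families that were listed for one species only had no part in the comparison. SLC7A5, which encodes LAT1, the light chain for large neutral amino acids, had 43.8 and 46.7 FPKM in ferret astrocytes, and its mouse level was not analysed here. The summed FPKM and shares of the transporter genes therefore leave it out in both species. Slc7a3, which encodes CAT3, had 1.07 FPKM in both mouse libraries. Slc7a13 (0.044 and 0.025 FPKM) and Slc7a15 (0.156 and 0 FPKM) were near 0 in the mouse libraries, and Slc7a12 is listed at 0 in both.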
